A study of Mus musculus with 3 samples.

Results

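The locus described here is a 1.1 Mb window of mouse chromosome 16 in build mm9, from 23.9 to 25 Mb, named for the genes Bcl6 and Lpp. It was chosen by how many regions with peaks in at least 2 replicates it holds. Its density and the sharing and scores of its peaks are therefore descriptions and were not tested. Its members are the peaks whose centre falls in the window, 25 of 6777 in replicate 1, 84 of 37307 in replicate 2 and 32 of 8862 in replicate 3. They also include 35 of the 9800 regions seen in at least 2 replicates, which are the intervals of the authors' deposited table joined where they touch. That table names replicates 2 and 3 the other way round than the sample titles of the lists: at the locus the names of 50 of its 73 intervals matched the lists as written, and 73 matched with those names exchanged. Replicate numbers here follow the sample titles, so the list of 37307 peaks is called replicate 2, and which of the files is right is not known. All 3 ChIP-seq samples belong to 1 group: RAW264.7, an established mouse macrophage line, carrying the transgene pINDUCER20b-HA-NUR77 and given 1 µg/mL doxycycline for 18 hours, followed by precipitation with an antibody to the HA tag. NUR77 was therefore measured as an induced, tagged and overexpressed protein, and no uninduced or untagged sample was analysed here. The labels do not say whether the replicates were separate cultures prepared on separate days, so the spread between them may be technical. Peak lists hold no expression values, so the identity of the line was not checked against markers, and read depth is unknown.

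NUR77 is an orphan nuclear receptor of the NR4A family that is induced early when macrophages are activated. It binds DNA alone at an extended half-site called the NBRE, and also in pairs and with the retinoid X receptor. Bcl6 encodes a zinc-finger repressor known for its role in germinal centre B cells and follicular helper T cells, and in macrophages it restrains inflammatory genes. Lpp encodes a LIM-domain protein of the zyxin family that sits at focal adhesions and cell contacts. In human B cells the stretch between BCL6 and LPP is known to hold distant enhancers of BCL6.

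In the order of RefSeq genes (GRCm38.p6), Bcl6 follows Sst and Rtp2, Lpp comes next among protein-coding genes, and Tprg lies beyond it. Of the 9 genes annotated between Bcl6 and Lpp, 0 are protein coding, 7 are long non-coding RNAs and 2 are pseudogenes. The microRNA gene Mir28a lies within the span of Lpp. The gene table is of another build than the peaks and no position was converted, so no peak is assigned to a gene, an exon or an intron. The only mm9 gene position at hand is that of Bcl6, near 23.97 Mb, which comes from the definition of the window.

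The promoters of both genes are shown because the locus is named for them. RefSeq lists 2 start sites for each gene, and the 250 bases before the outer one are given 5′ to 3′ on the gene's strand. They are from build GRCm38.p6, at chr16:23988853-23989102 on the minus strand for Bcl6 and at chr16:24393100-24393349 on the plus strand for Lpp. These positions cannot be set beside the mm9 positions of the peaks.
Bcl6: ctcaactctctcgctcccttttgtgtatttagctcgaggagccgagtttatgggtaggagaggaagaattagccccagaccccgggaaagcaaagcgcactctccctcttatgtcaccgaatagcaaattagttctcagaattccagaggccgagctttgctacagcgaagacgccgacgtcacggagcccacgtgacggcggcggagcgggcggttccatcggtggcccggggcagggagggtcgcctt
Lpp: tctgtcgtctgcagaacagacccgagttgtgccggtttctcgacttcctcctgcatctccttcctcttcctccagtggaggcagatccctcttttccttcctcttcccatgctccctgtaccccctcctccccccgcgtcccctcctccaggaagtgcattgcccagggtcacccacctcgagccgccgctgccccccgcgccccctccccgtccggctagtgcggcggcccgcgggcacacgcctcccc

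The 300 bases around each of the 4 start sites, which reach 50 bases past them, were searched on both strands for the NBRE octamer AAAGGTCA and for the nuclear receptor half-site AGGTCA, which is contained in it. None of the 4 windows held the octamer, which 1.51% of all 32851 RefSeq promoters of the same length held. The half-site was found only at the inner start site of Lpp, in 2 copies on the strand of the gene, and 16.3% of all promoters held at least 1 copy. Both copies are shown with 11 bases on either side and the half-site in capitals.
Lpp inner start site, farther copy: tgcccactatgAGGTCAcagaaaggact
Lpp inner start site, nearer copy: tcctggtggatAGGTCAgagagtgtgcc
The farther copy begins 47 bases before the start site and the nearer one 5 bases before it. A match of letters is a description and not a site, and the sequence under the peaks was not read, since no mm9 genome was used here.

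Peaks were dense at the locus in each replicate. Replicate 1 had 22.7 peaks per Mb in the window, replicate 2 had 76.4 and replicate 3 had 29.1, against 2.66, 14.6 and 3.47 per Mb over the numbered chromosomes in the same lists. The ratio to the numbered chromosomes was 8.55, 5.21 and 8.39 in replicates 1, 2 and 3, with a mean of 7.39 ± 1.88 (SD, n = 3). The window is 1.12% of the length of chromosome 16 and held 8.39%, 5.56% and 8.38% of that chromosome's peaks in replicates 1, 2 and 3. At the locus the peaks of replicate 2 outnumbered those of replicate 1 by a factor of 3.36, against 5.50 over the whole lists. When each list was limited to its 6777 best-scored peaks, the locus held 25, 27 and 27 peaks in replicates 1, 2 and 3. The density ratio then had a mean of 8.98 ± 0.369 (SD, n = 3). In lists of equal length the replicates thus differed by 2 peaks at most at this locus.

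**Figure D1:**
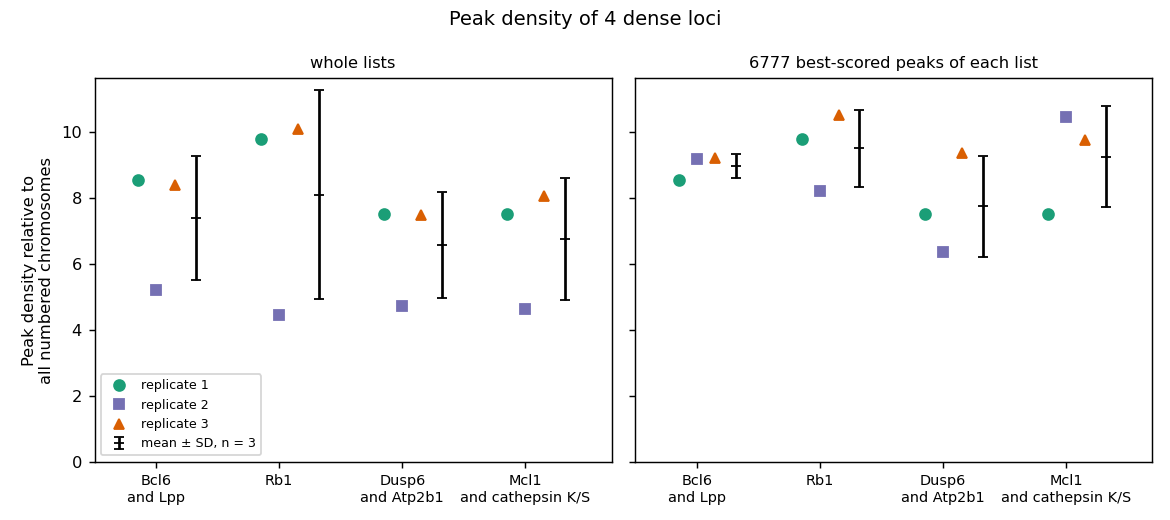
Peak density relative to all numbered chromosomes for the Bcl6 and Lpp locus and 3 other dense loci, by replicate, with the mean and SD of 3 replicates beside the points, in whole lists (left) and in the 6777 best-scored peaks of each list (right). At the Bcl6 and Lpp locus the replicates span 5.21 to 8.55 in whole lists and 8.55 to 9.21 in equal lists.

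A further 3 windows of 1 Mb that are also dense in regions were set beside it, each called by the genes it is named for. The density ratio averaged 7.39 ± 1.88 at the Bcl6 and Lpp locus, 8.11 ± 3.18 at the Rb1 locus of chromosome 14 (73 to 74 Mb), 6.58 ± 1.62 at the Dusp6 and Atp2b1 locus of chromosome 10 (98 to 99 Mb) and 6.75 ± 1.84 at the Mcl1 and cathepsin K/S locus of chromosome 3 (95 to 96 Mb) (SD, n = 3 each). The same 3 lists were used at each locus and replicate 2 gave the lowest ratio at each, so these SDs do not measure differences between loci. Within each whole list the Bcl6 and Lpp ratio was above those of the Dusp6 and Mcl1 loci. It was above that of the Rb1 locus only in replicate 2 (5.21 against 4.44). In lists of equal length the Mcl1 locus was higher in replicates 2 and 3 (10.5 and 9.76, against 9.17 and 9.21). The Dusp6 locus was then higher in replicate 3 (9.38 against 9.21), and the Rb1 locus in replicates 1 and 3, as in whole lists. The Bcl6 and Lpp locus held 31.8 regions per Mb, against 31, 30 and 28 per Mb at those loci. All 4 windows were picked for such counts, so their order was not tested.

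The score of a peak is the authors' own value and its scale is not stated. Each score was therefore turned into a percentile of its own list, where 100 is the best-scored end and 50 the middle. Percentiles of different lists are not the same measure, since the lists differ in length. At the locus the median percentiles of replicates 1, 2 and 3 were 65.3, 64.6 and 64.9, against 50 in each whole list by construction, a mean of 64.9 ± 0.368 (SD, n = 3). The scores still covered most of each list, with lowest values of 13.7, 6.42 and 8.43 and highest values of 99.1, 99.9 and 99.3 in replicates 1, 2 and 3. Among the best-scored 10% of their list were 3 of the 25 locus peaks of replicate 1, 15 of the 84 of replicate 2 and 7 of the 32 of replicate 3, which is 12%, 17.9% and 21.9%, where the definition gives 10% for each whole list. Peaks that overlap other lists also scored higher in the whole lists, as given below. The window was picked on such peaks, so nothing is read from how its scores compare with the whole lists. The median percentiles of the other loci, averaged over replicates, were 68.7 ± 3.24 at the Rb1 locus, 59.0 ± 6.14 at the Dusp6 and Atp2b1 locus and 74.5 ± 4.95 at the Mcl1 and cathepsin K/S locus (SD, n = 3 each). In the 6777 best-scored peaks of replicate 2 the locus had a median percentile of 51.3, against 65.3 in replicate 1 and 67.2 in replicate 3 in lists of that length.

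The replicates shared most of the locus peaks of the shorter lists. In replicate 1, 23 of 25 locus peaks (92%, 95% Wilson interval 75 to 97.8) overlapped a replicate 2 peak by at least 1 bp, against 91.8% of the whole list. Replicate 3 covered 20 of the 25 (80%, 60.9 to 91.1), against 71.6% of the whole list. In replicate 3, 30 of 32 locus peaks (93.8%, 79.9 to 98.3) overlapped replicate 2, against 91.2%, and 20 (62.5%, 45.3 to 77.1) overlapped replicate 1, against 54.8%. Each of these intervals for replicates 1 and 3 includes the share of the whole list. In the longer replicate 2 list, 23 of 84 locus peaks (27.4%, 19.0 to 37.7) overlapped replicate 1, against 16.7%, and 30 (35.7%, 26.3 to 46.4) overlapped replicate 3, against 21.7%. These intervals for replicate 2 lie above the share of the whole list. The window was picked on regions of at least 2 replicates, so nothing is read from how these shares compare with the whole lists. The intervals cover counting error only and take the peaks of the window as independent. Read counts behind the peaks are not part of the lists.

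Of the 35 regions, 19 (54.3%, 95% Wilson interval 38.2 to 69.5) had a stretch covered by all 3 replicates, against 47.8% of the 9800 regions of the series. The share was 61.3% at the Rb1 locus, 43.3% at the Dusp6 and Atp2b1 locus and 50% at the Mcl1 and cathepsin K/S locus. Replicates 2 and 3 without replicate 1 made up 11 of the other regions, replicates 1 and 2 without replicate 3 made up 4, and replicates 1 and 3 without replicate 2 made up 1. No region held more than 1 peak of any list. Region widths ran between 200 and 632 bp, and the median was 407 bp at the locus and 350 bp in the series. The locus peaks had median widths of 400, 550 and 400 bp in replicates 1, 2 and 3, against 350, 500 and 350 bp in the whole lists.

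**Figure D2:**
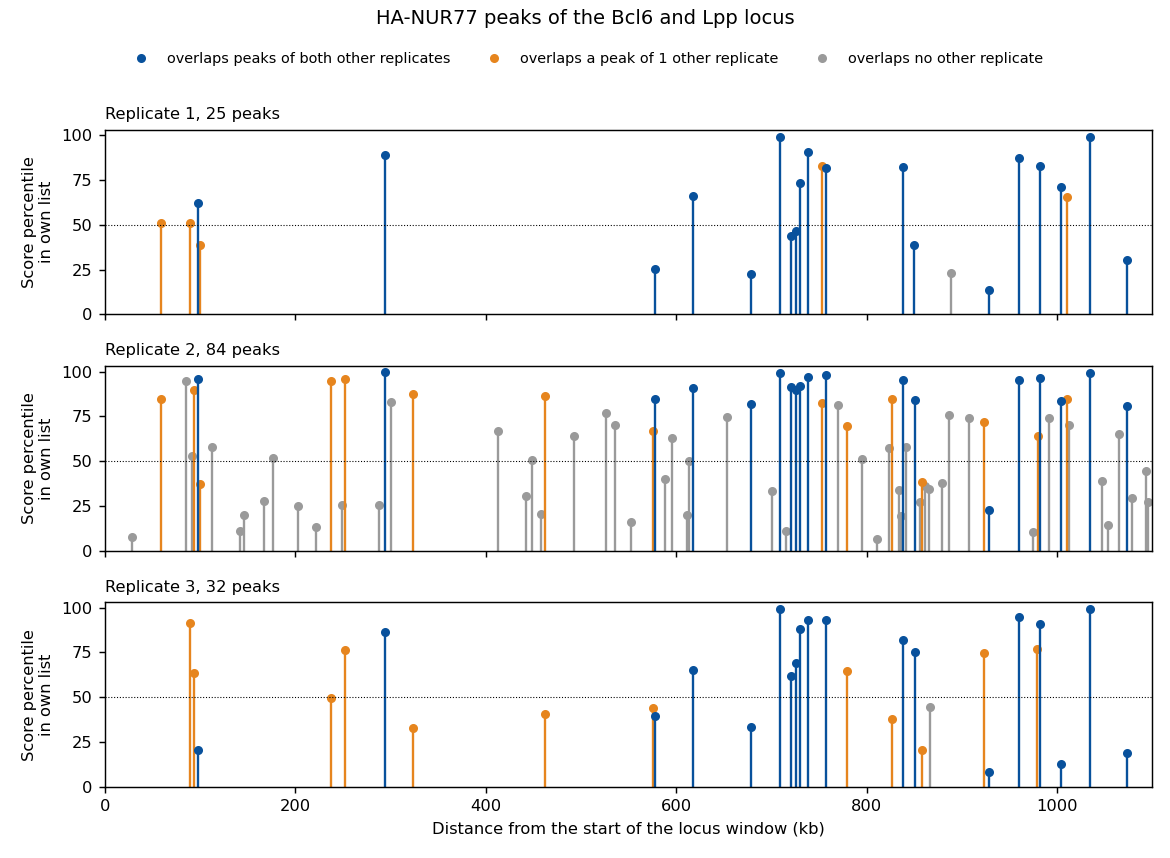
Peaks of the Bcl6 and Lpp locus in replicates 1, 2 and 3, each drawn at its distance from the start of the window (kb) with a height equal to its score percentile in its own list and coloured by how many other replicates it overlaps; the dotted line marks percentile 50. Peaks shared by all 3 replicates lie mostly beyond 550 kb, while peaks of replicate 2 alone run through the whole window.

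The strongest positions of the locus by all 3 lists together were a pair of separate regions, 709 and 1034 kb from the start of the window. At 24608371 to 24609002 (mm9, as all positions of peaks and regions), the peaks ranked 63 of 6777 in replicate 1, 335 of 37307 in replicate 2 and 66 of 8862 in replicate 3. At 24933821 to 24934402 they ranked 74, 335 and 61. Their lowest percentile in any list was 98.9. In replicate 2 both had the score 958.844, which 549 peaks of that list share, so that list does not order them. These 2 and the region at 24637503 to 24638120, with percentiles of 90.6, 97.1 and 93.2 in replicates 1, 2 and 3, were the 3 regions in the best-scored 10% of every list.

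The best-scored peak of replicate 2 at the locus lay elsewhere. The region at 24193453 to 24193970 ranked 23 in replicate 2, with a score of 982.964 above that tie. It ranked 765 in replicate 1 and 1187 in replicate 3, percentiles of 88.7 and 86.6. Of the 4 regions between 24136703 and 24223652 it was the only one with all 3 replicates. Replicate 2 thus ranks it above the pair just described, while replicates 1 and 3 rank it below them.

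Several further regions of all 3 replicates scored in the upper part of each list. The region at 24859753 to 24860302 had percentiles of 87.4, 95.4 and 94.7 in replicates 1, 2 and 3. At 24656853 to 24657352 they were 81.7, 97.9 and 93.1, and at 24881971 to 24882552 they were 83.0, 96.1 and 91.1. The region at 24737703 to 24738202 had 82.5, 95.3 and 81.8. The region at 24517721 to 24518202 lay lower, with 66.2, 90.7 and 65.3.

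Being called in all 3 replicates did not go with a high score throughout. The region at 24828571 to 24828902 had percentiles of 13.7, 22.5 and 8.43 in replicates 1, 2 and 3, the lowest of the 19 in each list. In 4 of the 19 the percentile was below 50 in both replicate 1 and replicate 3, and 3 of these 4 stood at 80.8 to 84.9 in replicate 2. They are the regions at 24477071 to 24477370 (25.2, 84.9 and 39.7 in replicates 1, 2 and 3), at 24577921 to 24578252 (22.7, 81.7 and 33.4) and at 24973121 to 24973452 (30.3, 80.8 and 18.9). Their ranks are given as well, since the replicate 2 list is far longer, but neither ranks nor percentiles are a common measure of the lists. In replicates 1, 2 and 3 the ranks were 5070.5, 5637 and 5344 for the first region. The second region ranked 5237, 6814 and 5899, and the third ranked 4725, 7183 and 7189. A further pair was uneven between the shorter lists. The region at 24903321 to 24903720 had 71.3, 83.3 and 12.9, and that at 23997403 to 23997770 had 62.0, 96.1 and 20.6.

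**Figure D3:**
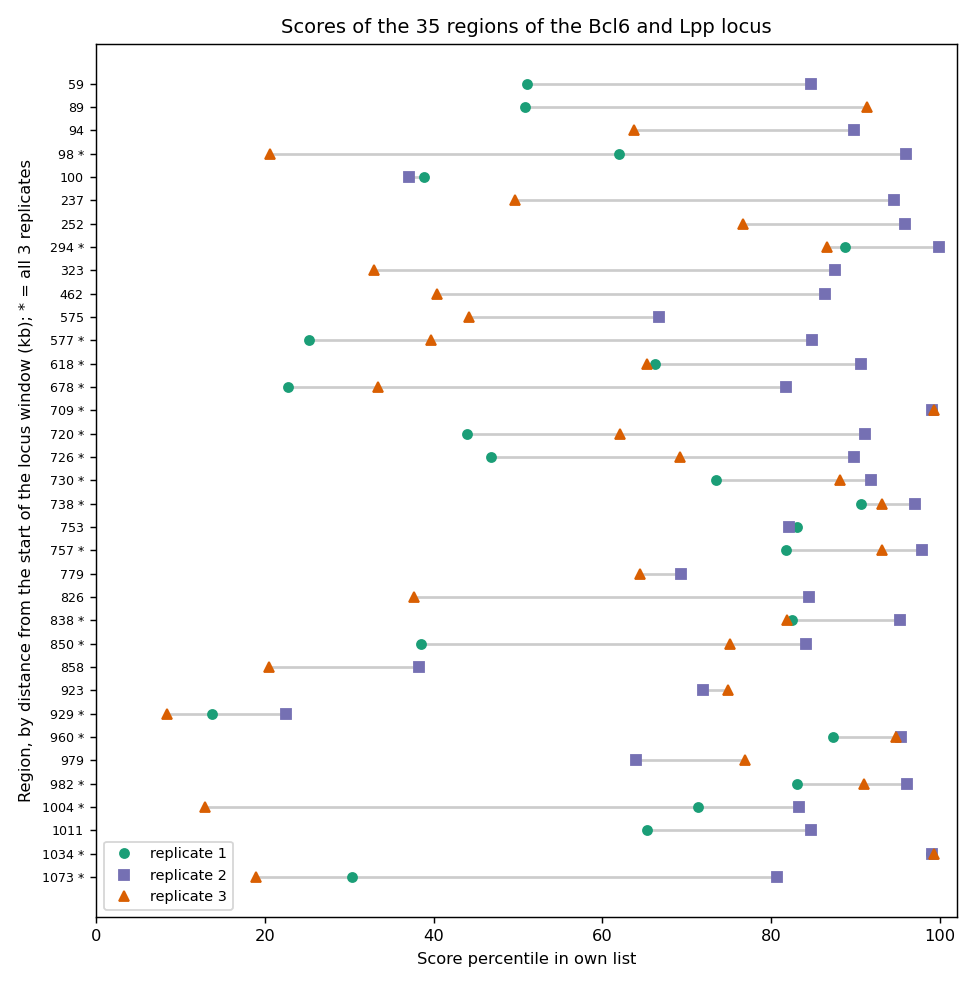
Score percentile in replicates 1, 2 and 3 for the 35 regions of the locus, in order of their distance from the start of the window (kb), with a grey line from the lowest to the highest value and a star for regions of all 3 replicates. The symbols nearly coincide at 709 and 1034 kb, where all values are 98.9 or higher, and at 929 kb all 3 are at 22.5 or lower.

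Regions with all 3 replicates had median percentiles of 71.3, 91.9 and 75.1 in replicates 1, 2 and 3. Regions of exactly 2 replicates had medians of 51 over 5 regions in replicate 1, 84.5 over 15 in replicate 2 and 56.7 over 12 in replicate 3. In the whole lists, peaks that overlap both others had medians of 60.3, 91.4 and 66.1 in replicates 1, 2 and 3, and peaks that overlap 1 other had 27.1, 73.9 and 31.7. Across overlapping peaks of the locus the scores gave a Spearman rho of 0.779 for replicates 1 and 2 (23 pairs), 0.805 for replicates 1 and 3 (20 pairs) and 0.680 for replicates 2 and 3 (30 pairs). Over the whole lists it was 0.689, 0.788 and 0.714. These are correlations across peaks, which share their libraries and their stretch of chromosome and are not replicates.

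The regions were spread unevenly along the window. Centres of neighbouring regions lay 2.09 to 138.7 kb apart, with a median of 17.4 kb, and 3 gaps exceeded 100 kb. These gaps divide the locus into 4 stretches. The stretch at 23958821 to 24000070, around the position given for Bcl6, held 5 regions of which 1 had all 3 replicates. The next, at 24136703 to 24223652, held 4 regions of which 1 had all 3, and a lone region with replicates 2 and 3 lay at 24361953 to 24362252. The last stretch, at 24474903 to 24973452, held 25 of the 35 regions and 17 of the 19 with all 3 replicates. It also held 20 of the 25 locus peaks of replicate 1, 51 of the 84 of replicate 2 and 24 of the 32 of replicate 3. The 3 long gaps were without any peak of replicates 1 and 3 but not without peaks of replicate 2, which had 7, 4 and 4 in them. None of those 15 exceeded percentile 77.0.

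**Figure D4:**
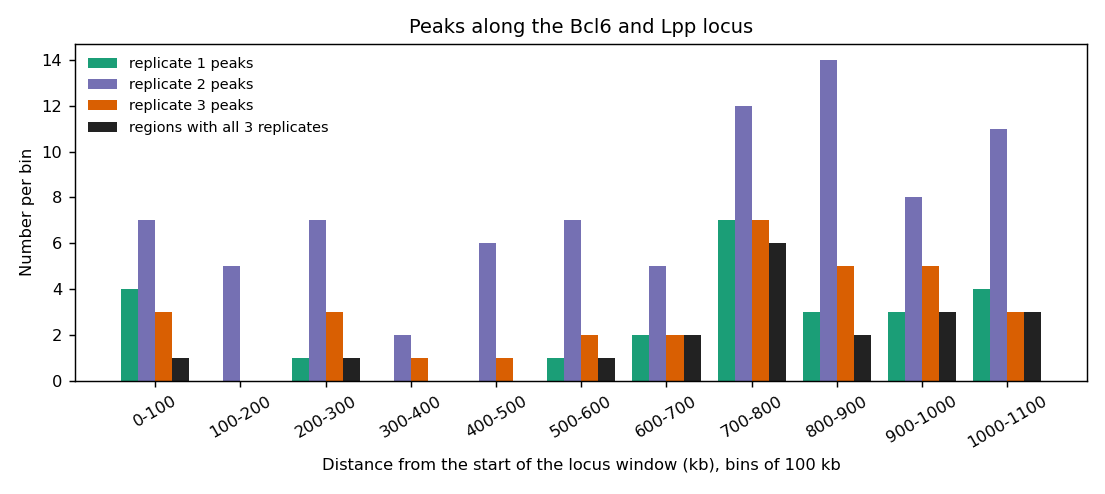
Number of peaks of replicates 1, 2 and 3 and of regions with all 3 replicates in bins of 100 kb along the locus, by distance from the start of the window (kb). Replicates 1 and 3 and the regions of all 3 replicates are highest at 700 to 800 kb, with 7, 7 and 6, and replicate 2 is highest in the next bin, with 14.

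Joined where centres lay within 50 kb divided by 4, or about 13 kb, 23 of the 35 regions (65.7%) formed 8 sub-clusters and 12 stood alone, against 36.1% of the 9800 regions of the series with a neighbour that close. The same share was 64.5% at the Rb1 locus, 56.7% at the Dusp6 and Atp2b1 locus and 46.4% at the Mcl1 and cathepsin K/S locus. All 4 windows were picked for their counts of these regions, and dense regions have close neighbours by that choice. Whether the regions group beyond their density was not tested. The largest sub-cluster, at 24608371 to 24638120, held 5 regions in 29.8 kb, each with all 3 replicates. Replicates 1, 2 and 3 had 5, 6 and 5 peaks in it, so the lists nearly coincide there in number. The strong region at 24608371 and that at 24637503 form its ends. Between them lay regions at 24620203 to 24620620 (percentiles of 43.9, 91.2 and 62.1 in replicates 1, 2 and 3), at 24625621 to 24626152 (46.7, 89.9 and 69.2) and at 24629321 to 24629802 (73.4, 91.9 and 88.1). In each list the ends scored higher than the regions between them.

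A sub-cluster of 4 regions lay next to the position given for Bcl6, at 23988703 to 24000070, and 1 of the 4 had all 3 replicates, the lowest share among the 8 sub-clusters. The region at 23988703 to 23988970 was called in replicates 1 and 3, with percentiles of 50.8 and 91.4, and not in replicate 2. The nearest replicate 2 peak was 2.38 kb away from its border. Of the 9800 regions 1.77% had no replicate 2 peak, and this was the only such region of the locus. The region at 23993403 to 23993702 was called in replicates 2 and 3, with 89.8 and 63.7. The region at 23999796 to 24000070 was called in replicates 1 and 2, with 38.8 and 37.1. Only the region at 23997403 to 23997770, given above, was called in all 3. The best-scored peak of replicate 2 that no other list overlapped lay in the same stretch, at 23984646 to 23984895, with rank 2010 and percentile 94.6. Its centre was 4.07 kb from the nearest region.

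The third sub-cluster of more than 2 regions lay at 24726103 to 24758052, with 4 regions of which 2 had all 3 replicates. Besides the region at 24737703 already given, these were the regions at 24749921 to 24750402 (38.5, 84.1 and 75.1 in replicates 1, 2 and 3), at 24726103 to 24726395 (84.5 in replicate 2 and 37.7 in replicate 3) and at 24757853 to 24758052 (38.3 and 20.4 in the same lists). Replicate 2 had 8 peaks there, against 2 in replicate 1 and 4 in replicate 3. The other 5 sub-clusters were pairs, each with 1 region of all 3 replicates.

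Outside the sub-clusters, 2 regions without replicate 1 stood high in replicate 2. The region at 24136703 to 24137002 had percentiles of 94.6 in replicate 2 and 49.7 in replicate 3, and the nearest replicate 1 peak was 56.5 kb away. At 24151553 to 24151902 the values were 95.8 and 76.6, with the nearest replicate 1 peak at 41.6 kb. The remaining 9 regions, each of 2 replicates, had percentiles of 51.0 to 83.1 in replicate 1. Theirs were 64.0 to 87.6 in replicate 2 and 32.9 to 76.9 in replicate 3.

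Peaks of a lone list were almost all from replicate 2. It had 50 such peaks at the locus, 59.5% of its 84, against 74.3% of its whole list, while replicates 1 and 3 had 1 each. The 50 peaks had percentiles from 6.42 to 94.6 with a median of 38.4, against a median of 38.8 for all such peaks of replicate 2. Of the 50, 28 were below the middle of the list, 1 was in the best-scored 10%, and 2 were among the best-scored 6777. Their centres lay 1.56 to 67.3 kb from the nearest region, with 25 of the 50 within about 13 kb. The lone peak of replicate 1 was at 24788171 to 24788520 (percentile 23.2) and that of replicate 3 at 24766203 to 24766452 (percentile 44.8).

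Overlapping peaks of different replicates were centred close together. Their centres lay a median of 25 bp apart for replicates 1 and 2, 57 bp for replicates 1 and 3 and 43 bp for replicates 2 and 3, against 41, 46 and 42 bp over the whole lists. The largest distance at the locus was 207 bp. Peak widths at the locus were multiples of 50 bp throughout, and peak starts lay on a 50 bp grid offset differently in each list. Distances of this size are therefore at the precision of the borders. Replicate 2 peaks were wider than the replicate 1 peaks they overlapped in 22 of 23 pairs, by a median of 250 bp, and wider than the replicate 3 peaks in 29 of 30 pairs, by a median of 225 bp.

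The window's borders fall differently into the data. On the lower side the last region before the window was 822.5 kb from the border, and the nearest outside peaks of replicates 1 and 3 were as far. Replicate 2 had a peak 44.4 kb outside, at percentile 0.11 of its list. The first region inside, at 23958821 to 23959170 with percentiles of 51.0 and 84.7 in replicates 1 and 2, was 59.0 kb from the border. On the upper side the regions continued. The last region inside, given above, was 26.7 kb from the border, and the next one outside, at 25010353 to 25010852, was 10.6 kb beyond it. The peaks of that outside region had percentiles of 92.7, 99.1 and 92.4 in replicates 1, 2 and 3.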

How the data were processed

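The authors deposited 1 peak list per replicate with a score for each peak, and a table of intervals covered by at least 2 replicates. The coordinates are of mm9, per the submitters' processing notes. The sources used here state no caller version, threshold, aligner or use of control reads. The score has no stated scale, so peaks were ranked within their own deposited list, ties at their mean rank. Table rows that touch were joined. Replicates were read from the lists by sample title, since the table and the titles disagree on which is replicate 2 and which is replicate 3. Peaks overlapping by at least 1 bp counted as shared. Density used mm9 chromosome lengths of GenomeInfoDb 1.38.1. Named regions hold all 3 replicates, a peak in the best-scored 10% of a list, or belong to a sub-cluster of 3 or more. Members, lists and rules were chosen with earlier results of these data known. With 1 group of 3 and a window picked for density, nothing was tested. Depth is unknown. Overlaps, regions and sub-clusters were first tested on simulated data. Tools were numpy 2.4.6 and scipy 1.17.1, with pandas 2.3.3, in Python 3.11.15, and matplotlib 3.10.9. Peak sequences were not analysed here.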

Additional observations from a re-analysis of the deposited data

How the results depend on the processing

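The window held 35 regions, and 24 to 37 under the other overlap rules, list lengths and borders tried. Leaving out each replicate gave 20 to 30, lowest without replicate 2 and 23 without replicate 3, since only regions common to the remaining lists count. The share of regions with all 3 replicates was 54.3%, and 41.7% to 56.8% under the alternatives. The mean of the median percentiles, 64.9, was 60.3 when means were taken in place of medians, 61.3 in lists of equal length and 66.0 with the window moved in by 50 kb. It was 64.7 to 65.1 without each replicate. The density ratio of 7.39 ranged from 6.65 against chromosome 16 alone to 9.13 in the higher-scored 50% of each list. The 8 sub-clusters became 5 at 5 kb, 5 at 50 kb and 2 among regions of all 3 replicates. Leaving out each replicate gave 3 to 6, 3 without replicate 2 and 5 without replicate 3, as fewer regions enter. No paired analysis was possible because the 3 samples form 1 group. Depth is unknown, so a list without a peak does not show that NUR77 is absent there.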

Other observations

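The centres of overlapping peaks of replicates 1 and 3 differed in the median at the locus. The replicate 3 centre lay a median of 44.5 bp higher than the replicate 1 centre over 20 pairs, higher in 14 and lower in 6, against a median of 0 bp over 4854 pairs of the whole lists. For replicates 2 and 3 the median was 19.5 bp at the locus, with replicate 3 higher in 17 of 30 pairs and lower in 13, and 2 bp over the whole lists. For replicates 1 and 2 it was 0 bp at the locus and -2 bp over the whole lists. This was noticed after the values were seen, and the widths of the locus peaks were multiples of 50 bp.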
